A study of Mus musculus with 10 samples.

Results

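The unfolded protein response and the integrated stress response were examined as 34 genes in mouse tumour-associated macrophages. The members were chosen by gene symbol: 15 chaperones and folding enzymes of the endoplasmic reticulum (ER), 4 genes of ER-associated degradation, 7 sensors and transcription factors, and 8 targets of the factor Atf4 or other stress outputs. All 34 had a row in each of the 10 library tables, among 21938 genes per table. At least 10 reads in at least 3 libraries were found for 32 of the 34 members and for 11564 genes in all, and these were tested. Chac1 and Asns stayed below that limit.

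Each C57BL/6 mouse had received PyMT mammary tumour cells in a pair of mammary glands, and the tumours grew for 5 weeks before macrophages were sorted. The control group was wild-type tumour cells in wild-type mice (3 libraries), the Mertk KO group was wild-type tumour cells in mice with a macrophage-specific deletion of the efferocytosis receptor Mertk (4 libraries), and the Ptdss1 knockdown group was wild-type mice carrying tumour cells with a knockdown of the phosphatidylserine synthase Ptdss1 (3 libraries). By the labels, the knockdown in that group was in the tumour cells, whereas the libraries are of macrophages. Replicates are numbered in accession order, since the labels number none, and Ptdss1 knockdown replicate 1 is the library titled X13. The labels give neither the Cre driver, nor the knockdown construct, nor whether libraries come from different mice. A p-value here thus reflects only how these libraries vary, and that variation may be technical. The comparisons ask how the macrophage transcriptome differs when the receptor is deleted or when the tumour cell enzyme is reduced. Both comparisons with control use the same 3 control libraries.

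Proteins made in the ER are folded there by chaperones and disulphide isomerases. When unfolded proteins accumulate, the sensors Ern1 (Ire1), Eif2ak3 (Perk) and Atf6 are activated, and the factors Xbp1, Atf6 and Atf4 raise transcription of chaperones and of the genes that remove misfolded proteins. Eif2ak3 shares its target, the initiation factor eIF2 alpha, with kinases that sense amino acid shortage, haem shortage and viral RNA, and the common output through Atf4 is called the integrated stress response. In macrophages the arm of Ern1 and Xbp1 is also known to be engaged downstream of Toll-like receptors. Splicing of Xbp1, cleavage of Atf6 and phosphorylation of eIF2 alpha, by which these pathways are usually read, are not visible in reads summed per gene.

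The ER arm and the Atf4 arm are known to act through different short DNA elements, and the matches in the members' promoters are shown to set these elements side by side. RefSeq promoter windows on GRCm38.p6, from 250 bases before to 50 bases after the start site, were matched for 31 of the 34 members (33 windows of 300 bases); those of Manf, Hyou1 and Atf6 were not matched. The ER stress response element (ERSE), searched as CCAAT, 9 bases of any kind and CCACG on both strands, is bound by NF-Y and by Atf6 or Xbp1. It was present in 8 of 31 members (25.8%) and in 0.137% of 27025 genes with a promoter window, and 7 of the 8 were chaperones or folding enzymes. The members are in part textbook targets of this element, so its share among them is a description. Below, CCAAT and CCACG are in capitals and the position is that of the site's most upstream base relative to the start site of the gene, also for sites on the strand opposite to the gene.
Hspa5, chr2:34772020-34772048, + strand, position -65: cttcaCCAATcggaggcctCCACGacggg
Calr, chr8:84847070-84847098, + strand, position -162: atgggCCAATgagggtcgaCCACGcgttg
Hsp90b1, chr10:86705633-86705661, - strand, position -212: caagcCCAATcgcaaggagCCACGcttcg
Hsp90b1, chr10:86705528-86705556, + strand, position -107: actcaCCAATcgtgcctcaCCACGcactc
Canx, chr11:50325795-50325823, - strand, position -145: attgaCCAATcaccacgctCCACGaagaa
Pdia6, chr12:17266486-17266514, + strand, position -98: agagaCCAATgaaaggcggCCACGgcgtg
Dnajc3, chr14:118937822-118937850, + strand, position -105: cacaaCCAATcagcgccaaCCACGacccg
Creld2, chr15:88819515-88819543, - strand, position -126: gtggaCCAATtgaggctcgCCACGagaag
Syvn1, chr19:6046527-6046555, + strand, position -44: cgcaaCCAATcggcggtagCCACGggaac

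The shorter element ERSE-II (ATTGG, 1 base and CCACG) was found in Dnajb11 and Herpud1, 6.45% of members and 0.0444% of all genes. The element TGATGNAAN, which factors of the Atf4 and C/EBP families bind together, was found in Asns, Chac1, Herpud1 and Trib3, 12.9% of members and 4.5% of all genes. Its variant TTGCATCA on the other strand overlaps the same sites in Chac1 and Herpud1, and was found in 1.03% of all genes. The Xbp1 element TGACGTGG was found in 0 of the 31 members and 0.714% of all genes. The sites are printed in the direction of the element, with its letters in capitals, to set the ER element beside that of the Atf4 arm.
Herpud1, ERSE-II, chr8:94386372-94386392, + strand, position -52: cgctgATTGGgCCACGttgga
Dnajb11, ERSE-II, chr16:22857847-22857867, + strand, position 7: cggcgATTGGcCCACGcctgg
Herpud1, TGATGNAAN, chr8:94386311-94386329, - strand, position -113: cgggcTGATGCAACccgcc
Trib3, TGATGNAAN, chr2:152344034-152344052, + strand, position 13: ccggcTGATGTAAAcctga
Chac1, TGATGNAAN, chr2:119351043-119351061, - strand, position -194: aggagTGATGCAACggcag
Asns, TGATGNAAN, chr6:7693219-7693237, - strand, position -23: ccacaTGATGAAACttccc

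The 250 bases before the start site are shown for Hspa5 and for Herpud1, the only member with elements of both kinds, with the letters of the found elements in capitals.
Hspa5, chr2:34771840-34772089, + strand: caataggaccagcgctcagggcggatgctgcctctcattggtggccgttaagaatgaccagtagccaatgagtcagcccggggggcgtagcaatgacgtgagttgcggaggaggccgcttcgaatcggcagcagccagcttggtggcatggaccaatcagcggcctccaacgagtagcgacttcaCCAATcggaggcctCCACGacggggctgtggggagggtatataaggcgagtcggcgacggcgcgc
Herpud1, chr8:94386179-94386428, + strand: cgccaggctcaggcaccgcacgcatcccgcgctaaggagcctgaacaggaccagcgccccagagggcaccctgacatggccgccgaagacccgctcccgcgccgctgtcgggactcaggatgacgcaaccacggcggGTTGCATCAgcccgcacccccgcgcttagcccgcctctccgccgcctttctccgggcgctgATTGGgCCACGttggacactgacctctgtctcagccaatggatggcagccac

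The libraries held 10292592 to 25815071 reads. One library stood apart: Ptdss1 knockdown replicate 1 had at least 10 reads for 6995 genes, against 9066 to 11523 in the others, and 31.5% of the genes that reached 10 reads in 7 or more of the remaining libraries fell short of it there. Control replicate 2 was the next, with 13.1%. Mertk itself had log2 values of 9.64, 9.26 and 10.97 in control and 10.63, 9.72, 9.24 and 8.95 in the libraries labelled Mertk KO, so the groups overlapped. The labels do not say which exons were deleted, and a value summed over the gene does not check such a deletion, so these are called the libraries labelled Mertk KO. In Ptdss1 knockdown Mertk was 7.47, 10.20 and 9.0, and Ptdss1 was 1.85, 9.43 and 9.58, against 8.04 to 10.36 for Ptdss1 in the other groups. Ptdss1 knockdown replicate 1 was thus the lowest library for both genes. The 12 macrophage markers, among them Adgre1, Csf1r, C1qa and Lyz2, were above 0 in every library and summed to 47100 to 60000 RPM (reads per 1000000 reads of the library) in control, 41900 to 84700 in Mertk KO and 30800 to 50300 in Ptdss1 knockdown, the lowest being Ptdss1 knockdown replicate 1.

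Levels of the members are compared here as RPKM (reads per kilobase of exon, in RPM), averaged over the 10 libraries. The 9 highest means belonged to ER chaperones. Hspa5 (BiP, the main ER chaperone of the Hsp70 family) averaged 320, with a range of 131 to 758, followed by the calcium-binding chaperone Calr (295), the disulphide isomerase Pdia3 (265), the Hsp90 family chaperone Hsp90b1 (251) and the BiP cofactor Sdf2l1 (218). The neighbours in this order overlapped widely in their ranges, so the order among these 5 genes was not resolved, and without Ptdss1 knockdown replicate 1 Calr averaged 274 and Hspa5 271. Of the sensors, Atf6 averaged 8.14, Eif2ak3 5.28 (3.18 without that library) and Ern1 2.69. The factors Xbp1 and Atf4 were far above them, at 99.6 and 57.4.

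The Atf4 targets were mostly low. Sesn2 averaged 4.81, Trib3 3.98, Ddit4 2.66 and Psat1 1.78 RPKM, and Asns 0.202 and Phgdh 0.172. The first pair rested on Ptdss1 knockdown replicate 1, with 27.8 for Sesn2 and 34.1 for Trib3 there, and their means without it were 2.26 and 0.635. The factor Atf5 averaged 0.528. Ppp1r15a was the exception among the outputs, at 55.0. Chac1 had 3 reads, all in Ptdss1 knockdown replicate 3, and 0 reads in the other 9 libraries. Asns was at 0 in 5 libraries and had 137 reads over all 10. The plot of levels per exon length shows this gap between chaperones and Atf4 targets.

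**Figure D1:**
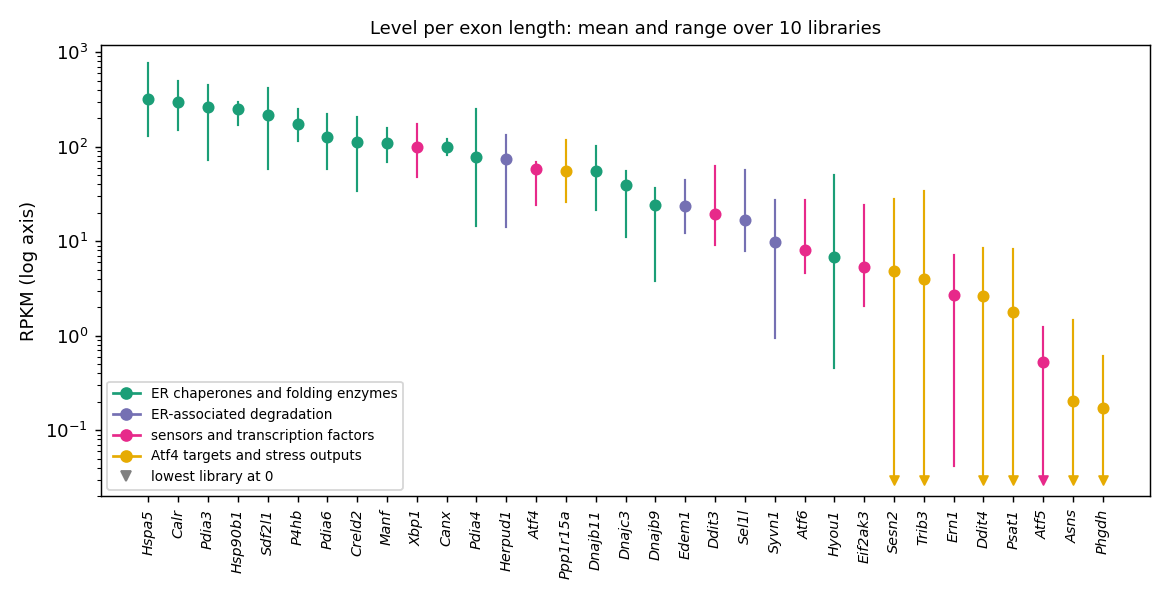
Mean level of each member (points) with the lowest and highest library (lines), in RPKM on a log axis, coloured by role, over the 10 libraries. Chac1 is left out (mean 0.0071). Hspa5 is at 320 and Calr at 295, with overlapping ranges, and triangles at the foot mark members with at least 1 library at 0, which are Atf5 and 6 of the Atf4 targets and outputs.

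All further values are the deposited log2(normalised reads + 1). The spread between libraries of a group differed by role. The within-group SD had a median of 0.686 over the 15 chaperones, 0.952 over the 4 degradation genes, 0.785 over the 7 sensors and factors and 2.44 over the 6 tested Atf4 targets and outputs, against 1.64 over all genes tested. The chaperones were also far more highly expressed, with a median mean log2 value of 12.6 against 7.94 for all genes, whereas the Atf4 targets and outputs were below all genes, at 5.11.

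**Figure D2:**
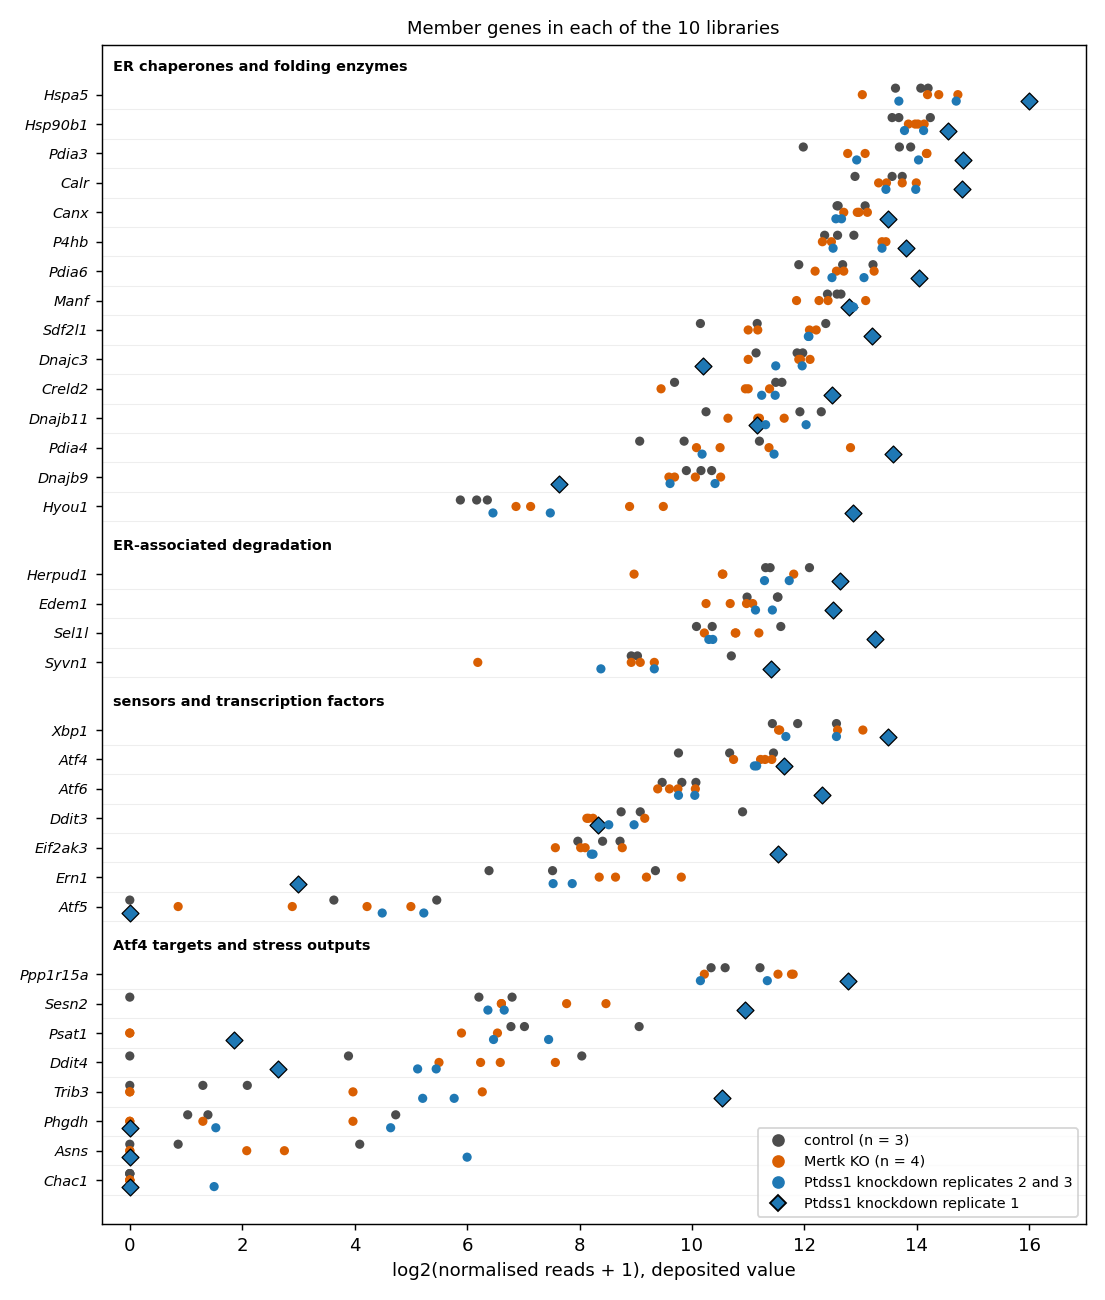
Deposited log2(normalised reads + 1) of each of the 34 members in every library, by role, with control in grey, Mertk KO in orange and Ptdss1 knockdown in blue. The diamond, Ptdss1 knockdown replicate 1, lies to the right of all other libraries for 22 of the 32 tested members and to the left of them for Dnajb9, Dnajc3 and Ern1.

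The highest values of most members lay in a single library. Ptdss1 knockdown replicate 1 was the highest of the 10 libraries for 22 of 32 members (68.8%), whereas it was the highest for 28.8% of all genes tested. Hyou1, Trib3, Sesn2, Eif2ak3, Pdia4, Sel1l, Atf6 and Syvn1 lay 2.38 to 8.44 above the median of the other 9 libraries there. The members lay a median of 1.23 above the median of the other libraries, and all genes tested a median of 1.02 below it, written -1.02. The latter includes the genes missing from that library. Among genes with at least 10 reads in it, both lay above: the 27 such members by a median of 1.32 and all 6931 such genes by 0.838. Some members went the other way, and 7 of 32 lay more than 1 below the median of the other 9 libraries (21.9%, against 50.2% of all genes tested). These 7 were Ern1, Psat1, Atf5, Ddit4, Dnajb9, Dnajc3 and Phgdh. Among genes with at least 10 reads in that library, the shares were 7.41% of members and 21.7% of all genes. Of the 7, Dnajb9, Dnajc3 and Ern1 were at their lowest of all libraries in Ptdss1 knockdown replicate 1. The lowest values gathered in other libraries, counting no gene with more than 1 library at 0. Control replicate 3 was the lowest for 8 of 32 members, against 5.83% of all genes. Mertk KO replicate 1 was the lowest for 6, against 3.93%, and Ptdss1 knockdown replicate 1 for 3, against 30.6%.

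Member reads made up 1.44% of Ptdss1 knockdown replicate 1 and 0.513% to 1.0% of the others, and Hspa5 alone supplied 22.2% of member reads there against 9.77% to 17.7% elsewhere. Without that library, Mertk KO replicate 3 was the highest for 12 of 32 members (37.5%, against 16.8% of all genes). Ptdss1 knockdown replicates 2 and 3 were then the highest for 0 members, against 8.48% and 4.46% of all genes. Markers of other cells did not all move the same way in Ptdss1 knockdown replicate 1. The B and plasma cell list (12 genes, 1 of them at 0 in every library) summed to 326 RPM in replicate 1, and to 43.1 to 107 in the others, but Cd79a, Jchain and Mzb1 were at 0 reads and the sum came from Prdm1 (6699 reads) and Derl3 (937 reads). The neutrophil list (10 genes, with S100a9, Ly6g and Camp at 0 in every library) summed to 274 against 40.8 to 98.8, carried by Csf3r with 6413 reads. The epithelial tumour cell list summed to 0.256 RPM there, against 21.3 to 160. The dendritic cell list (10 genes) summed to 4.14 RPM there, to 532 in Mertk KO replicate 3 and to 33.9 to 268 in the others. In Mertk KO replicate 3 Cd209a alone had 9573 reads. The part of these genes, of the missing genes and of depth in the member values was not tested.

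**Figure D3:**
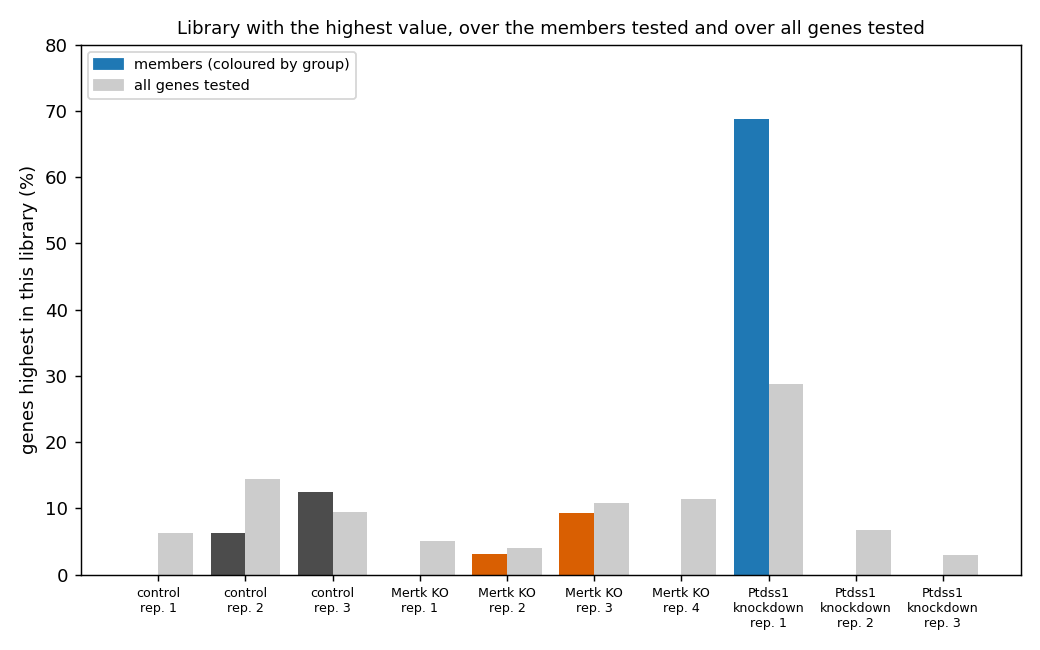
Percent of genes with their highest value in each library, for the 32 members tested (coloured by group) and for all genes tested (light grey). Ptdss1 knockdown replicate 1 holds 68.8% of members and 28.8% of all genes, and each other library holds at most 12.5% of members.

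In the comparison of the libraries labelled Mertk KO with control, no member passed an adjusted p of 0.05 (limma-trend with Benjamini-Hochberg adjustment over 11564 genes), and 2 genes in all did, 0.0173%. The chaperones were close to control: 11 of 15 had a positive difference, with a median of 0.17. Of the degradation genes 3 of 4 had a negative one, with a median of -0.87. Over the 32 members the median difference was 0.15 (20 positive), beside 0.02 over all genes, and it turned to -0.07 (12 of 31 positive) without control replicate 3. Markers of other cells differed in level between these groups. The 12 NK and T cell markers in the table summed to 123 to 232 RPM in control and 14.7 to 61.0 in Mertk KO. The 12 epithelial tumour cell markers summed to 21.3 to 33.0 in control and 65.6 to 160 in Mertk KO, with Epcam at 0 in all 7 of these libraries and Cldn4 and Ehf at 0 in all 10. Cdh1 gave most of these reads except in Mertk KO replicate 4, where Krt8 had 1535 reads, Cdh1 1218 and Krt18 647. Their part in the member values was not tested. An unadjusted p below 0.05 was found for 1 member, Psat1, and for 2.06% of all genes. Ptdss1 knockdown replicate 1 enters this comparison only through the shared estimate of spread. Without it, 3 members (Psat1, Herpud1 and Hyou1, 9.38%) and 5.39% of all genes had such a p by limma-trend, and 0 members passed the adjusted threshold. The ranges of the groups did not overlap for 2 members, Hyou1 (higher) and Psat1 (lower), 6.25% of those tested, against 5.62% of all genes.

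In the comparison of Ptdss1 knockdown with control, no member and no gene passed (0.0% of genes), with 335 genes at an unadjusted p below 0.05 by limma-trend and 0 genes past the adjusted threshold by limma-voom on the recovered reads. The median difference over members was 0.60, with 26 of 32 positive, beside -0.05 over all genes. Without Ptdss1 knockdown replicate 1 it was 0.18, with 22 positive, beside 0.12 over all genes, and 0.0% of genes passed. The chaperones kept a positive median, 0.62 with all libraries and 0.29 without that one, with 13 of 15 positive each time. Of all genes, 48.0% were positive with all libraries and 56.5% without that one. The chaperones summed to 3970 RPM in control replicate 3, against 6730 and 6600 in control replicates 1 and 2. Ptdss1 knockdown replicates 2 and 3 had 5750 and 8190. How far the remaining difference rested on control replicate 3 was not tested. The degradation genes turned, from 4 of 4 positive (median 0.31) to 0 of 4 (median -0.21). Unadjusted p was below 0.05 for Trib3 and Sdf2l1, against 2.9% of all genes, and for 0 members without replicate 1. Ranges did not overlap for Hyou1, Manf and Trib3, all higher in Ptdss1 knockdown, 9.38% of members against 6.92% of all genes. Trib3 passed the read filter only through the Ptdss1 knockdown libraries, so its place in both counts is no support for a difference.

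In the comparison of Mertk KO with Ptdss1 knockdown, again no member and no gene passed (0.0% of genes), with 431 genes at an unadjusted p below 0.05 by limma-trend and 0 past the adjusted threshold by limma-voom. The median difference over members was -0.49 with 6 of 32 positive, beside 0.11 over all genes. Without Ptdss1 knockdown replicate 1 it was -0.09 with 13 positive, beside -0.11, and 0.0% of genes passed. Herpud1, Trib3 and Ern1 had an unadjusted p below 0.05, against 3.73% of all genes, and 0 members had one without that library. The p of Trib3 is no support for a difference here either, since it passed the read filter only through Ptdss1 knockdown. Ranges did not overlap for Ern1 and Ddit4 (higher in Mertk KO) and Edem1 (lower), 9.38% of members against 5.23% of all genes. Ddit4 separated by as little as 5.50 in Mertk KO replicate 2 against 5.45 in Ptdss1 knockdown replicate 3, with a difference of 2.07 (SE 1.91).

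**Figure D4:**
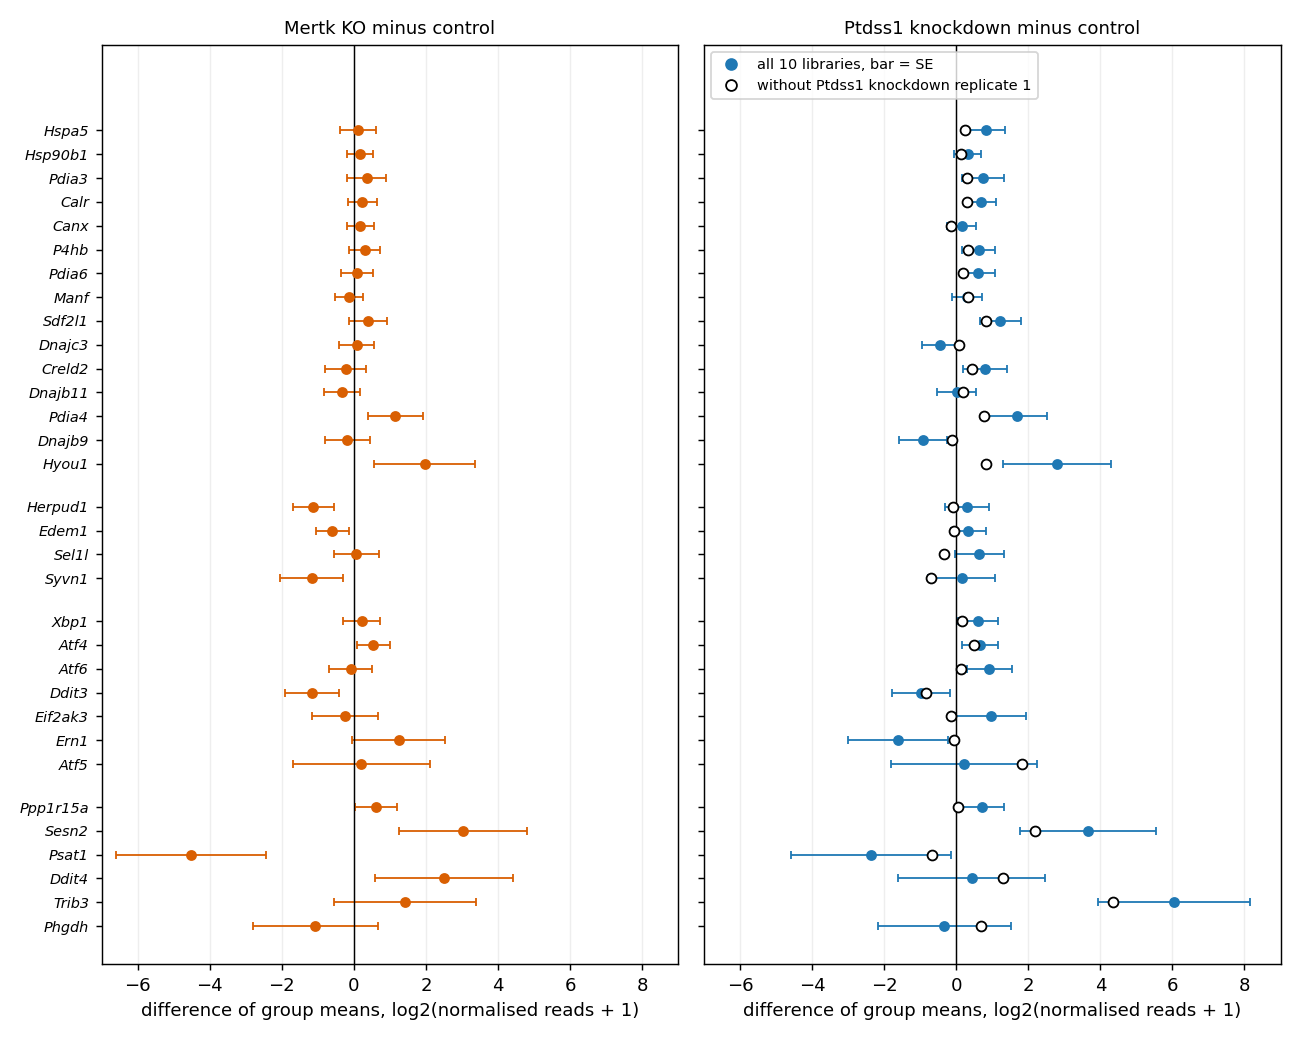
Difference of group means in log2(normalised reads + 1) for the 32 tested members, with the SE of the fit as bars, for Mertk KO minus control (left) and Ptdss1 knockdown minus control (right), which share the control libraries. Open circles give the difference without Ptdss1 knockdown replicate 1. Most chaperones lie near 0 on the left and move towards 0 on the right when that library is left out, as Hspa5 does from 0.83 to 0.23, and Trib3 goes from 6.04 to 4.36.

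Among the chaperones, Hspa5 (ENSMUSG00000026864) had log2 values of 14.20, 14.07 and 13.62 in control, 13.03, 14.19, 14.73 and 14.39 in Mertk KO, and 15.99, 13.68 and 14.70 in Ptdss1 knockdown. The groups overlapped, and the 15.99 of Ptdss1 knockdown replicate 1 stood clear of the rest. The mean was 13.96 ± 0.31 (SD, n = 3) in control, 14.08 ± 0.74 (SD, n = 4) in Mertk KO and 14.79 ± 1.16 (SD, n = 3) in Ptdss1 knockdown. The difference from control was 0.12 (SE 0.5) in Mertk KO and 0.83 (SE 0.53) in Ptdss1 knockdown, or 0.23 without replicate 1. In bulk RNA, fewer cells of a type and less RNA per cell cannot be told apart.

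Hyou1, the ER chaperone that helps BiP release its nucleotide, was 6.36, 6.17 and 5.88 in control, 6.87, 7.13, 9.49 and 8.89 in Mertk KO, and 12.86, 7.48 and 6.46 in Ptdss1 knockdown. All 7 libraries outside control were above all 3 controls, and the values in 2 of the 4 Mertk KO libraries exceeded those of Ptdss1 knockdown replicates 2 and 3. The difference from control was 1.96 (SE 1.39; limma adjusted p = 1.0) in Mertk KO and 2.80 (SE 1.49; limma adjusted p = 0.841) in Ptdss1 knockdown, and the latter was 0.83 without replicate 1.

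Pdia4, a disulphide isomerase, was 11.20, 9.07 and 9.86 in control, 10.50, 10.08, 12.82 and 11.37 in Mertk KO, and 13.57, 10.18 and 11.46 in Ptdss1 knockdown. Mertk KO replicate 3 and Ptdss1 knockdown replicate 1 stood above the others and the groups overlapped. Its difference from control was 1.15 (SE 0.77) in Mertk KO, or 0.60 without Mertk KO replicate 3 and 0.66 without control replicate 2, and 1.69 (SE 0.83) in Ptdss1 knockdown, or 0.77 without replicate 1.

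Sdf2l1, a partner of BiP and its J proteins, was 12.38, 11.16 and 10.15 in control, 11.00, 11.17, 12.09 and 12.21 in Mertk KO, and 13.21, 12.08 and 12.07 in Ptdss1 knockdown. Control replicate 1 lay above the lower pair of Ptdss1 knockdown libraries, so the groups overlapped. The difference from control in Ptdss1 knockdown was 1.22 (SE 0.57; unadjusted p = 0.0456, adjusted p = 0.841, limma) and was 0.84 without replicate 1 and 0.69 without control replicate 3.

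Calr, the lectin chaperone calreticulin, was 13.74, 13.56 and 12.90 in control, 13.32, 13.46, 13.99 and 13.74 in Mertk KO, and 14.80, 13.45 and 13.98 in Ptdss1 knockdown. Its differences from control were 0.23 (SE 0.4) and 0.68 (SE 0.43), the second falling to 0.31 without replicate 1.

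The other 10 chaperones differed in their spread, with ranges above 2 over the 10 libraries for Creld2 (3.04), Dnajb9 (2.88), Pdia3 (2.84), Pdia6 (2.13) and Dnajb11 (2.04). Canx, the membrane-bound relative of Calr, had the narrowest range of all tested members, 0.93 over the 10 libraries and 0.56 without Ptdss1 knockdown replicate 1, and Hsp90b1 had a range of 1.0, or 0.68. Manf, a secreted protein of the stress response, was 12.80, 12.87 and 12.87 in Ptdss1 knockdown, just above the 12.58, 12.41 and 12.65 of control, while Mertk KO spanned 11.86 to 13.09. This separation by 0.30 (SE 0.41; limma adjusted p = 0.888) did not rest on replicate 1, since the difference was 0.32 without it. The J proteins Dnajb9 and Dnajc3, the first of which can bring BiP to Ern1 and hold it inactive, were the chaperones that were lowest in Ptdss1 knockdown replicate 1, at 7.63 and 10.19 against 9.59 to 10.51 and 11.00 to 12.10 in the other libraries. Other genes overlap 15.7% of the exon bases of Hsp90b1 and 9.3% of those of Manf, and the libraries do not mark strand, so their reads may include those of neighbours.

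Of the 4 degradation genes, 3 had a lower mean in the libraries labelled Mertk KO than in control, without passing the test. Herpud1 (ENSMUSG00000031770), a membrane protein that assembles the Hrd1 ligase complex, was 11.39, 11.31 and 12.09 in control, 8.97, 10.55, 10.54 and 11.81 in Mertk KO, and 12.63, 11.29 and 11.73 in Ptdss1 knockdown. In Mertk KO 3 of 4 libraries lay below every library of the other groups, and replicate 4 lay among them. The difference from control was -1.13 (SE 0.57; adjusted p = 1.0), or -0.63 without Mertk KO replicate 1, and that from Ptdss1 knockdown was -1.42 (SE 0.57; unadjusted p = 0.0226, adjusted p = 0.805, limma), or -0.92 without Mertk KO replicate 1. Ptdss1 knockdown differed from control by 0.29 (SE 0.61).

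Edem1, which directs misfolded glycoproteins to degradation, was 11.52, 10.98 and 11.53 in control, 10.68, 10.97, 10.25 and 11.08 in Mertk KO, and 12.50, 11.13 and 11.43 in Ptdss1 knockdown. Every Mertk KO library was below every Ptdss1 knockdown library, by as little as 11.08 against 11.13. That difference was -0.94 (SE 0.45; limma adjusted p = 0.805), or -0.53 without replicate 1.

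Syvn1, the Hrd1 ubiquitin ligase, was 8.92, 10.70 and 9.03 in control, 9.08, 9.33, 6.19 and 8.92 in Mertk KO, and 11.41, 9.33 and 8.38 in Ptdss1 knockdown. The 6.19 of Mertk KO replicate 3 was the lowest of the 10 values, and the difference from control was -1.17 (SE 0.88) with it and -0.44 without it. Without control replicate 2, the highest control, it was -0.59. Its partner Sel1l was at 13.26 in Ptdss1 knockdown replicate 1 and between 10.08 and 11.58 in all others. The turn of the 4 degradation genes in Ptdss1 knockdown thus came with 1 library: their differences were between 0.15 and 0.64 with it and between -0.70 and -0.07 without it.

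Among the sensors, Ern1, the kinase and RNase that splices Xbp1 mRNA, was 7.52, 6.39 and 9.35 in control, 8.64, 8.35, 9.81 and 9.19 in Mertk KO, and 2.99, 7.53 and 7.87 in Ptdss1 knockdown. All 4 Mertk KO libraries were above all 3 Ptdss1 knockdown libraries, and control spanned both. The difference between them was 2.87 (SE 1.29; unadjusted p = 0.0392, adjusted p = 0.805, limma), or 1.30 without Ptdss1 knockdown replicate 1. The other sensors went the opposite way in that library: Eif2ak3 was 11.53 there against 7.57 to 8.76, and Atf6 was 12.31 against 9.39 to 10.07. Without it Atf6 had a range of 0.68, as narrow as that of Hsp90b1.

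Xbp1, the factor made active by Ern1, was 11.88, 12.57 and 11.43 in control, 11.54, 11.56, 12.59 and 13.04 in Mertk KO, and 13.49, 11.67 and 12.57 in Ptdss1 knockdown. The groups overlapped throughout, with differences from control of 0.22 (SE 0.51) and 0.61 (SE 0.55), the latter 0.15 without replicate 1. Reads per gene do not tell spliced from unspliced Xbp1.

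Atf4, the factor at the centre of the integrated stress response, was 10.67, 9.76 and 11.45 in control, 11.22, 10.74, 11.30 and 11.42 in Mertk KO, and 11.64, 11.15 and 11.11 in Ptdss1 knockdown. Control replicates 1 and 2 lay below all other libraries and control replicate 3 among the highest, so the groups overlapped. The differences from control were 0.54 (SE 0.46) and 0.67 (SE 0.5), and the latter was 0.50 without Ptdss1 knockdown replicate 1. Atf4 is regulated mainly by translation, which these data do not measure.

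Ddit3 (Chop), the factor linked to cell death under lasting ER stress, was 9.08, 8.74 and 10.90 in control, 9.16, 8.13, 8.16 and 8.24 in Mertk KO, and 8.32, 8.52 and 8.97 in Ptdss1 knockdown. Control replicate 3 stood above all others, and without it the remaining libraries spanned 8.13 to 9.16. The differences from control were -1.15 (SE 0.75) in Mertk KO and -0.97 (SE 0.8) in Ptdss1 knockdown, and -0.49 and -0.31 without control replicate 3. Other genes, among them Mars on the opposite strand, overlap 10.9% of its exon bases.

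Atf5, a factor that Atf4 and Ddit3 induce, was 3.63, 0 and 5.46 in control, 4.22, 5.00, 0.86 and 2.89 in Mertk KO, and 0, 5.23 and 4.49 in Ptdss1 knockdown. It had 206 reads over all libraries, and its differences from control, 0.21 (SE 1.9) and 0.21 (SE 2.03), were well below their errors.

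The widest differences lay among the Atf4 targets, which were also those with few reads. Trib3 (ENSMUSG00000032715), a pseudokinase induced through Atf4 and Ddit3 that binds Akt, was 2.09, 0 and 1.30 in control, 6.27, 3.97, 0 and 0 in Mertk KO, and 10.53, 5.77 and 5.21 in Ptdss1 knockdown. The 3 Ptdss1 knockdown libraries were above all 3 controls, and Mertk KO was split, with replicate 1 above Ptdss1 knockdown replicates 2 and 3, replicate 2 between them and control, and replicates 3 and 4 at 0. A count of 0 in control replicate 2 allows up to 3 reads, or 0.205 RPM, and in Mertk KO replicates 3 and 4 up to 0.156 and 0.141. Such limits cover counting error only, since the libraries carry no molecular identifiers. In reads, Trib3 had 4, 0 and 2 in control, 52, 18, 0 and 0 in Mertk KO, and 1700, 57 and 59 in Ptdss1 knockdown. It thus passed the read filter only through the Ptdss1 knockdown libraries, where it was high, so its differences are given as values with no test. The difference from control in Ptdss1 knockdown was 6.04, or 4.36 without replicate 1. Mertk KO differed from control by 1.43 (SE 1.97), or 0.19 without Mertk KO replicate 1 and 2.29 without replicate 3 or 4. It differed from Ptdss1 knockdown by -4.61, or -2.93 without Ptdss1 knockdown replicate 1.

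Psat1 (ENSMUSG00000024640), an enzyme of serine synthesis, was 7.02, 9.06 and 6.78 in control, 5.90, 6.54, 0 and 0 in Mertk KO, and 1.85, 6.47 and 7.45 in Ptdss1 knockdown. All 4 Mertk KO libraries were below all 3 controls, and the pair with reads lay just below control replicate 3. The difference was -4.51 (SE 2.08; unadjusted p = 0.0435, adjusted p = 1.0, limma) and went from -5.65 to -3.47 when single libraries were left out. Phgdh, which catalyses the first step of the same pathway, had 98 reads over the 10 libraries and a difference of -1.07 (SE 1.73).

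Sesn2, a stress-induced inhibitor of mTORC1, was 6.21, 0 and 6.80 in control, 6.61, 6.61, 8.47 and 7.77 in Mertk KO, and 10.94, 6.37 and 6.66 in Ptdss1 knockdown. Control replicate 2, the control library lacking the most genes, was alone at 0. The difference from control was 3.03 (SE 1.77) in Mertk KO and 3.65 (SE 1.89) in Ptdss1 knockdown, and without control replicate 2 these were 0.86 and 1.48. Without Ptdss1 knockdown replicate 1 the latter was 2.18. Ddit4, another inhibitor of mTORC1, was likewise at 0 in control replicate 2 and between 2.63 and 8.04 elsewhere.

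Ppp1r15a (Gadd34), the phosphatase subunit that reverses eIF2 alpha phosphorylation, was 10.34, 11.21 and 10.59 in control, 11.77, 10.22, 11.80 and 11.53 in Mertk KO, and 12.78, 10.15 and 11.34 in Ptdss1 knockdown. In Mertk KO 3 of 4 libraries lay above all controls and 1 below them. The differences from control were 0.62 (SE 0.58) and 0.71 (SE 0.61), the second 0.04 without Ptdss1 knockdown replicate 1. Tissue dissociation and cell sorting are known to induce immediate early and heat shock genes. The list of 21 immediate early and cytosolic heat shock genes summed to 7560 to 12400 RPM in control, 7750 to 12600 in Mertk KO and 10300 to 13100 in Ptdss1 knockdown. Its part in the values of Ppp1r15a, Ddit3, Ddit4 and Atf4 was not tested.

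A further 121 genes of these pathways were listed, of which 109 passed the read filter. None passed an adjusted p of 0.05 in any of the 3 comparisons (limma-trend), and unadjusted p was below 0.05 for 1, 8 and 4 of them in Mertk KO against control, Ptdss1 knockdown against control and Mertk KO against Ptdss1 knockdown. These are 0.917%, 7.34% and 3.67% of them, against 2.06%, 2.9% and 3.73% of all genes, and without Ptdss1 knockdown replicate 1 the 8 became 1 (of 108 tested). The 8 and the 4 include Derl3, and the 4 include Fkbp14, which passed the read filter only through the group where they were high. Their median difference was 0.02, 0.20 and -0.20. In Ptdss1 knockdown against control, the list of other sensors, kinases and factors had 18 of 22 positive (median 0.44), or 13 of 22 (59.1%, median 0.35) without replicate 1, where 56.5% of all genes were positive. In the same comparison with all libraries, where 48.0% of all genes were positive, the other folding enzymes had 11 of 21 positive (median 0.04) and translocation and signal peptide processing 10 of 21 (median -0.08). Translocation genes in Mertk KO were below control for 16 of 21, by a median of -0.21, and 0 of them had an unadjusted p below 0.05 (limma-trend). The other folding enzymes went the other way there, with 14 of 21 positive (median 0.19). Of all genes 50.9% were positive in that comparison (median 0.02).

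Of those genes, the ones with the smallest p in each comparison are given here. Derl3, a channel component of ER-associated degradation, was 0, 0 and 2.61 in control, 1.98, 2.09, 0 and 0 in Mertk KO, and 9.67, 4.82 and 4.84 in Ptdss1 knockdown, which lay above all other libraries. It passed the read filter only through these 3 libraries, with 937, 29 and 45 reads against at most 7 elsewhere, so its difference is given as values with no test, and it did not pass without replicate 1. The disulphide isomerase Txndc5 was 9.41, 6.56 and 8.92 in control and 12.05, 9.78 and 9.77 in Ptdss1 knockdown, a difference of 2.24 (SE 0.8), or 1.48 without Ptdss1 knockdown replicate 1 and 1.37 without control replicate 2. Eif2b5, the catalytic subunit of the exchange factor that eIF2 alpha phosphorylation inhibits, was 9.14, 3.76 and 8.22 in control, 8.97, 8.62, 10.21 and 9.86 in Mertk KO, and 11.96, 8.75 and 9.09 in Ptdss1 knockdown. Control replicate 2 was alone in being low, and the differences from control were 2.37 (SE 1.1) in Mertk KO and 2.89 (SE 1.18) in Ptdss1 knockdown, or 0.73 and 1.25 without that library. Without Ptdss1 knockdown replicate 1 the latter was 1.88.

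Control replicate 2 was also below the other controls for the tRNA synthetase gene Yars (7.90, 0 and 7.69 in control). Yars differed from control by 3.23 (SE 1.63) in Mertk KO, or 0.63 without control replicate 2. The folate enzyme Mthfd2 differed by -2.57 (SE 1.5), or -1.69 without Mertk KO replicate 3. Between Mertk KO and Ptdss1 knockdown, Dnajc10, a reductase of misfolded proteins, differed by 2.28 (SE 0.81), or 1.05 without Ptdss1 knockdown replicate 1, and the collagen-folding isomerase Fkbp14 by 4.11. Dnajc10 was 5.26 in Ptdss1 knockdown replicate 1 and 8.48 to 10.61 in the other libraries. Fkbp14 was 0.90, 0 and 0 in Ptdss1 knockdown and 3.97, 5.39, 3.05 and 5.24 in Mertk KO, and control, at 0.86, 0 and 5.31, spanned both. It passed the read filter only through the Mertk KO libraries, where it was high, so its difference is given as values with no test.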

How the data were processed

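Macrophage RNA was copied and amplified with a SMART-Seq v4 kit and sequenced from unstranded ThruPLEX libraries, per the labels' protocols. The submitters' processing notes name STAR, RSEM and mm10 without versions. How the values were normalised is not given in the sources used here. Per library, the authors deposited log2 values with a decimal comma and no stated unit. Undoing log2(value + 1) left equal steps in each library, and dividing by the step gave whole reads for 100% of values within a tolerance of 0.01. They were taken to be log2(reads divided by a size factor, plus a pseudocount of 1), and fold changes on this scale understate those of low genes.

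The 34 members, the pathway and marker lists and the tests were chosen with earlier results of these data known. All 10 libraries entered 1 limma-trend fit with robust moderation (limma 3.58.1, R 4.3.3), with 1 mean for each of the 3 groups. Genes with at least 10 reads in at least 3 libraries were kept (11564), tests were two-sided, and Benjamini-Hochberg adjustment ran over all of them. The fit was checked on simulated counts with the same dispersion in every library and no library lacking genes. The check therefore does not show its power or error rate in these libraries. Every library value is given for Hspa5, Xbp1, Atf4 and Ddit3, for the 2 highest and 2 widest-ranging members of each role, and for the 4 of smallest p in each comparison; up to 3 other pathway genes per comparison are named by smallest p. Hsp90b1, Manf, Canx, Creld2, Pdia3, Pdia6, Dnajb9, Dnajb11, Dnajc3, Sel1l, Eif2ak3, Atf6, Ddit4 and Phgdh were named after their values were seen. Exon lengths and gene positions are from GENCODE M21 (GRCm38). Depth is the total of recovered reads. Ddit3 stands on 2 gene IDs, of which the second had 0 reads. Alternatives changed the scaling, filter, pseudocount, weights, moderation or libraries, or used limma-voom on the recovered reads.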

Additional observations from a re-analysis of the deposited data

Results flagged for a closer look

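In the libraries labelled Mertk KO, the only group of 4, 33 members were checked for a library far from the others of its group, by the gap to the nearest library relative to the group's range (Dixon's test at its 95% critical value), and 2 were marked. Chance marks about 1 in 20 such groups. Syvn1, the Hrd1 ligase, was at 6.19 in Mertk KO replicate 3, with a gap of 0.869 of the range. Ddit3 was at 9.16 in Mertk KO replicate 1, with a gap of 0.892 of the range.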

How the results depend on the processing

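The number of members past an adjusted p of 0.05 was 0 in all 3 comparisons under every alternative run. The 12 differences with the smallest p kept their direction and their side of the threshold in all 240 alternatives. Alternatives that changed only the filter, the moderation or the group outside the comparison leave a difference of means as it is. Its direction could not change in these, so the count overstates how far direction was checked. The number of genes past the threshold in Mertk KO against control was 2, and became 0 with scaling by the library total, 0 without a filter, 0 with a filter of 50 reads, 1 without robust moderation and 25 with array weights. It ranged from 0 to 4 when single libraries were left out, with 4 without Ptdss1 knockdown replicate 1. In Ptdss1 knockdown against control array weights gave 2 in place of 0. In Mertk KO against Ptdss1 knockdown they gave 35 in place of 0, and leaving out both libraries that lacked the most genes gave 1. The median difference of members in Mertk KO against control was also -0.03 with array weights. In Ptdss1 knockdown against control it ranged from 0.18 to 0.85 when single libraries were left out, and in Mertk KO against Ptdss1 knockdown from -0.87 to -0.09, with the value nearest 0 in each case the one without Ptdss1 knockdown replicate 1. The causes were not tested. No paired analysis was possible because the labels number no replicates, and the numbers used here are in accession order. Several Atf4 targets had libraries at 0 reads, and the zeros did not follow the read totals: Mertk KO replicate 1, with the fewest reads, had 2 members at 0 and Mertk KO replicate 4, with 21321858 reads, had 5.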
